A study of Mus musculus with 2 samples.

Results

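The proteasome genes described here are the 50 genes, of 55450 in the deposited gene lists, whose symbol is Psm followed by a letter from a to g and a digit. The 4 pseudogene symbols ending in ps or ps2 were left out, and they held at most 2 UMIs (unique molecular identifiers, the tags that count single RNA molecules) per library. Microglia, the resident macrophages of the brain, had been sorted as CD11b-positive, CD45-low cells from adult male C57BL/6J mice, with the genotype given as C57. The awake group received saline (3 mice) and the anesthesia group received 100 mg/kg sodium pentobarbital, a barbiturate (3 mice). Each group has 1 droplet library that reads the 3' ends of transcripts, and pooling of its mice is not stated in the labels. The question is how the RNA of the proteasome differed between microglia of the awake and the anesthetized state.

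The proteasome is the barrel-shaped protease that degrades proteins tagged with ubiquitin. Its core particle has outer rings of alpha subunits, which gate the pore, and inner rings of beta subunits, of which Psmb5, Psmb6 and Psmb7 cut the chain. A cap of ATPases (Psmc genes) and other subunits (Psmd genes) binds ubiquitin, unfolds the substrate and feeds it in. In immune cells and under interferon, Psmb8, Psmb9 and Psmb10 take the places of Psmb5, Psmb6 and Psmb7 to form the immunoproteasome, whose peptides are well suited to MHC class I, and microglia are known to carry it.

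Because there is 1 library per group, no difference has a replicate check and no test was possible. "Higher" and "lower" describe these 2 libraries, in which library, handling and treatment cannot be told apart. Every 95% interval covers counting error only. The libraries held 53262885 (awake) and 61139016 (anesthesia) UMIs in 8600 and 9412 barcodes, 14 of which occur in both. Cells that carry the microglial markers, called microglia-like, were 7299 of 8223 awake and 8164 of 8944 anesthesia cells that passed the filters. They lay mostly in clusters 1 and 3 in the awake library (3628 and 3235 cells) and in clusters 0 and 2 in the anesthesia library (4376 and 3457 cells). Their median depth was 6002 and 5506 UMIs, and all 10 microglial markers were seen. The other library had 117, 141, 75 and 68 cells in those 4 clusters, so a ratio taken within clusters (the Mantel-Haenszel ratio over the microglia-like clusters) rests on few cells.

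Proteasome RNA made up 0.409% of the UMIs of microglia-like cells in the awake library and 0.346% in the anesthesia library. Of the 50 genes, 48 had at least 200 UMIs over both libraries and count as measured. Their levels ran from 3.71 to 197 UMIs per 1000000 (CPM) in the awake library, with a median of 87.0 against 21.4 for all measured genes. UMIs mark transcript ends, so these levels were not divided by transcript length. In the anesthesia library the median was 68.0 CPM against 21.1 for all measured genes. The most abundant members were Psma3, Psmb8 and Psme1 in both libraries, and the assembly chaperones stood near the bottom.

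**Figure D1:**
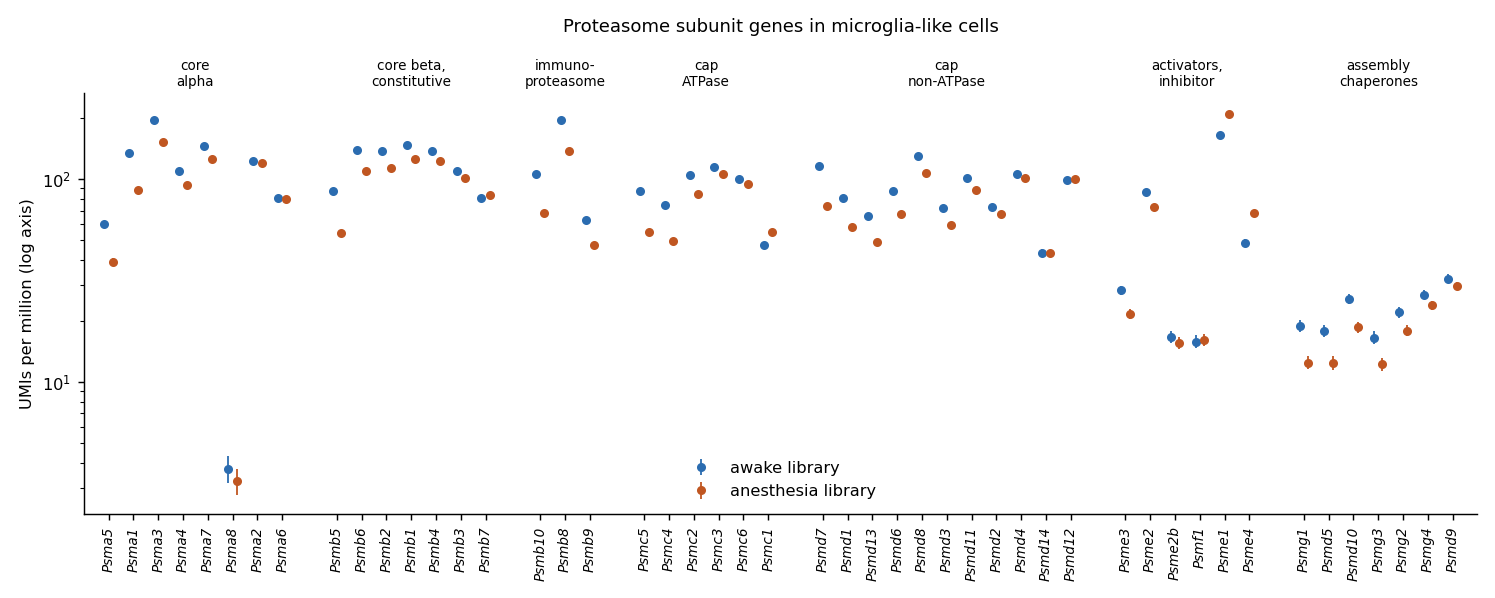
Level of the 48 measured proteasome genes in microglia-like cells, in CPM on a log axis, grouped by role. Blue points are the awake library and orange points the anesthesia library, with exact Poisson 95% intervals that are mostly smaller than the points. Psma8 lies lowest, at 3.71 and 3.24 CPM, and Psme1, Psme4 and Psmc1 are the members whose anesthesia point lies clearly above the awake one.

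Most subunits were lower in the anesthesia library. Over the 48 members the median log2 ratio (anesthesia over awake) came to -0.26, against -0.02 for all 11373 measured genes, and 41 members were below 0. Of all measured genes, 51.4% were below 0. At the threshold of 1.5-fold, 8 members were lower and 0 higher, where 12.0% of all measured genes were lower, 13.2% higher and 25.2% past it in either direction. The 8 were Psmb5, Psmc5, Psmd7, Psmb10, Psma5, Psma1, Psmg1 and Psmc4. The counting interval lay below 0 for 37 members and above 0 for 3, against 40.4% and 38.6% of all measured genes. The ratio within clusters gave a median of -0.14, with 32 members below 0, 0 at least 1.5-fold lower and 1 higher (Psme1). By that ratio 12.5% of all measured genes were lower and 11.4% higher. After removal of a GC content and transcript length trend, 2 were lower (Psmd5 and Psma1), against 11.1% of all measured genes, and the median was -0.23.

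**Figure D2:**
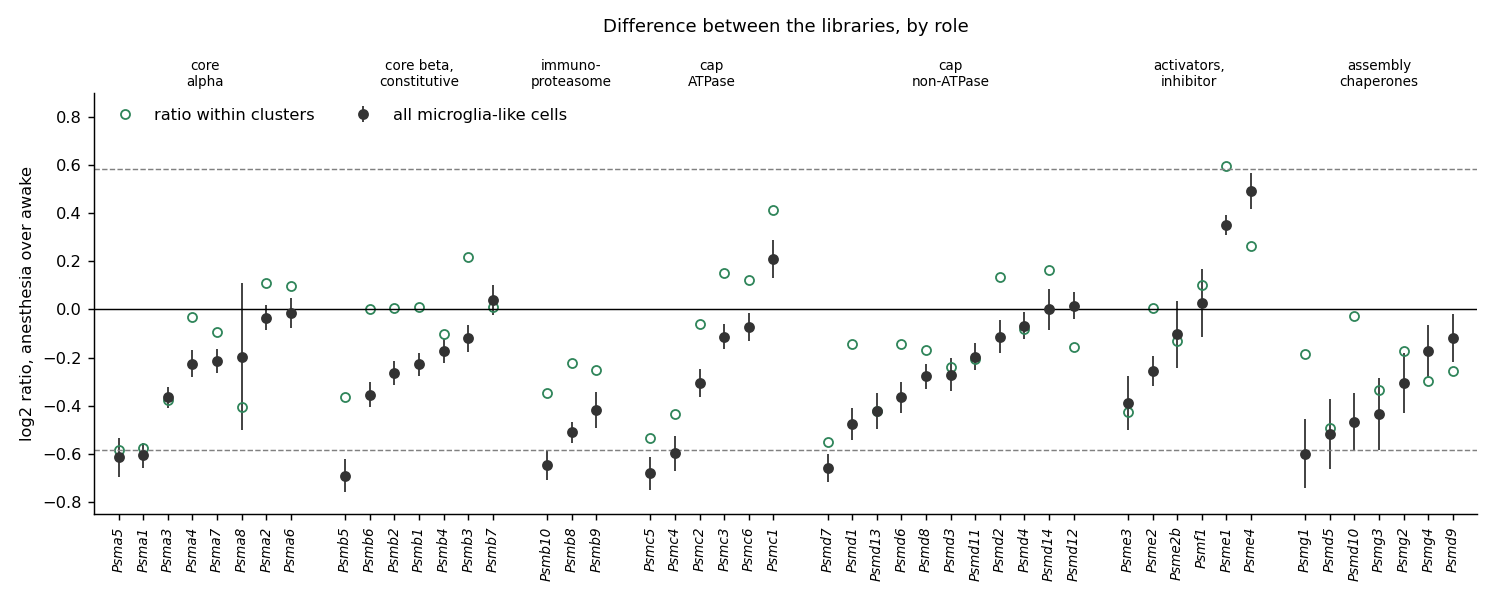
Log2 ratio of anesthesia over awake for each measured member in microglia-like cells, grouped by role. Filled points with 95% counting intervals are sums over all microglia-like cells, open green circles are the ratio within clusters, and dashed lines mark 1.5-fold. The filled points reach from -0.69 (Psmb5) to 0.49 (Psme4), and the open circles of Psme1 (0.60) and Psmc1 (0.42) lie farther from 0 than the filled ones.

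The alpha subunits of the outer rings had a median log2 ratio of -0.22, all 8 were below 0 and 2 were at least 1.5-fold lower. Psma1 had 135 CPM (131.9 to 139) in the awake and 88.7 (86.3 to 91.2) in the anesthesia library (log2 ratio -0.61, interval -0.66 to -0.55). Psma5 had 59.9 CPM (57.7 to 62.1) and 39.1 (37.5 to 40.7), a ratio of -0.62 (-0.70 to -0.54). Both were lower in the anesthesia library, and both kept nearly that size within clusters, at -0.58 and -0.58. Of the 31-base words in the last 500 bases of Psma5, 77.2% also occur in 3 other annotated genes, mostly the processed pseudogene Gm12989, so its count is uncertain. Psma3, the alpha subunit with the highest level, had 197 and 152.5 CPM, lower in the anesthesia library by a log2 ratio of -0.37. Psma6, with the alpha ratio nearest to 0, had 81.0 and 80.2 CPM, a ratio of -0.01 (-0.08 to 0.05). Psma8, the form of the core known from testis, had 177 awake and 182 anesthesia UMIs and an interval that spans 0 (-0.50 to 0.11).

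The 7 constitutive beta subunits had a median of -0.23, with 6 below 0 and 1 past 1.5-fold. Psmb5, the chymotrypsin-like subunit and the classical target of proteasome inhibitors, had 87.7 CPM (85.01 to 90.4) in the awake and 54.3 (52.4 to 56.2) in the anesthesia library. It was 1.62-fold lower in the anesthesia library, the lowest ratio of any measured member (log2 ratio -0.69, -0.76 to -0.62). Copies make it uncertain too, since 63.4% of the 31-base words near its end are shared, and it was at -0.36 within clusters and -0.48 after removal of the GC and length trend. Psmb6, the caspase-like subunit, had 140.0 CPM and 109.5 CPM, lower by a log2 ratio of -0.35 (-0.40 to -0.30), but at 0.0026 within clusters. Psmb7, the trypsin-like subunit, had 80.9 CPM (78.4 to 83.5) and 83.1 (80.8 to 85.6). Its interval spans 0 (-0.02 to 0.10), so the 3 constitutive catalytic subunits did not share one ratio. Psmb1, a structural subunit with the highest level of the group, had 148 and 126 CPM, lower by a log2 ratio of -0.23 and at 0.0095 within clusters.

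The 3 immunoproteasome subunits were lower in the anesthesia library, with a median of -0.51 that is the lowest of any role group. Psmb8 had 196 CPM (191.8 to 199.8) in the awake and 137 (134 to 140.5) in the anesthesia library (log2 ratio -0.51, interval -0.55 to -0.47). Psmb9 had 63.1 CPM (60.8 to 65.4) and 47.2 (45.4 to 49.0), a ratio of -0.42 (-0.50 to -0.34). Psmb10 had 106 CPM (103 to 109.1) and 67.7 (65.6 to 69.9), a ratio of -0.65 (-0.71 to -0.59). All 3 stayed below 0 under the 12 alternatives run, and pooled within clusters they were at -0.22, -0.25 and -0.35. Single clusters differed. In cluster 1 the 3628 awake cells had 362 CPM (354 to 370.2) of the 3 together and the 117 anesthesia cells 398 (343 to 460), with overlapping intervals and each of the 3 higher in the anesthesia library. In cluster 3 it was 375 CPM (367 to 383) and 269 CPM (233 to 309), lower in the anesthesia library. It was also lower there in cluster 0 (298 and 250 CPM), cluster 2 (347 and 252 CPM) and cluster 6 (311 and 256 CPM). The intervals of clusters 0 and 6 overlap between the libraries. When each cell was thinned to 2000 UMIs, the share of cells with a Psmb8 UMI was 32.6% (31.5 to 33.7) when awake and 23.9% (23.0 to 24.8) under anesthesia. For Psmb10 it was 18.98% and 12.95%. Without thinning the shares of Psmb8 were 69.6% and 55.4%, and those of Psmb10 48.4% and 34.6%. No cell class here should lack proteasome genes, so no class gives the level of free RNA.

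Taken as a share of the catalytic UMIs (Psmb8, Psmb9 and Psmb10 over those plus Psmb5, Psmb6 and Psmb7), the immunoproteasome held 54.2% (53.6 to 54.7) of 32108 UMIs in awake and 50.5% (49.95 to 51.1) of 28048 UMIs in anesthesia microglia-like cells. The share was lower in the anesthesia library, and the 2 counting intervals do not overlap. Immune and constitutive partners differed between the libraries by unequal amounts. Psmb10 against Psmb7 had log2 ratios of -0.65 and 0.04, Psmb9 against Psmb6 -0.42 and -0.35, and Psmb8 against Psmb5 -0.51 and -0.69.

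All 48 measured members were compared, further below, by a cell's interferon-stimulated RNA. The promoters of the interferon-linked members among them are shown here. They are RefSeq sequences of build GRCm38.p6, from 250 bases before to 50 bases after the start, 5' to 3'. Capitals mark matches, on either strand, to 2 copies of GAAA with any 2 bases between them, the kind of sequence bound by interferon regulatory factors, or to TTCNNNGAA, the kind bound by STAT factors.
Psmb8 (chr17:34197945-34198244, plus strand): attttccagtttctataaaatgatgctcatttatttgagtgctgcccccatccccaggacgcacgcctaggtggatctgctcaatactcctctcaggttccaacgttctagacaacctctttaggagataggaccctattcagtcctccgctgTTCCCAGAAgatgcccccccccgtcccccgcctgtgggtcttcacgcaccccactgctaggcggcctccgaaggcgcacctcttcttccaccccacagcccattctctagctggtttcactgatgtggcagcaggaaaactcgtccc
Psmb9 (chr17:34187281-34187580, minus strand): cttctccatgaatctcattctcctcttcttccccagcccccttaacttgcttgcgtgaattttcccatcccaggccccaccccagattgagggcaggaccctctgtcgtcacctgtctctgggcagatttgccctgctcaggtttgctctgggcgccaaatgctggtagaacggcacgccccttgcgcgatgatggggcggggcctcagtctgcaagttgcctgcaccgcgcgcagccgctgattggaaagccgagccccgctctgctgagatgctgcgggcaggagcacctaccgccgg
Psmb10 (chr8:105938343-105938642, minus strand): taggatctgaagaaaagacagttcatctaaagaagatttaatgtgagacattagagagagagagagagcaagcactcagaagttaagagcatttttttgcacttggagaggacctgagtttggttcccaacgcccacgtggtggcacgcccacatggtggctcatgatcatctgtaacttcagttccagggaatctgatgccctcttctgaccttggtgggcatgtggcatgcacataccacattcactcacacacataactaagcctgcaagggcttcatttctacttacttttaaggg
Psme1 (chr14:55578244-55578543, plus strand): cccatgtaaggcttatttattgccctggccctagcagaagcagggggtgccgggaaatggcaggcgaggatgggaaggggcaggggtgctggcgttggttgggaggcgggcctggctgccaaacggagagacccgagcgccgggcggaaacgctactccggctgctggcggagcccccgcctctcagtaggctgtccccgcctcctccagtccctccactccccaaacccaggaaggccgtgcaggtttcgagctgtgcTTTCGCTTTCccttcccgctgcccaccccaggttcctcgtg
Psme2 (chr14:55591052-55591351, minus strand): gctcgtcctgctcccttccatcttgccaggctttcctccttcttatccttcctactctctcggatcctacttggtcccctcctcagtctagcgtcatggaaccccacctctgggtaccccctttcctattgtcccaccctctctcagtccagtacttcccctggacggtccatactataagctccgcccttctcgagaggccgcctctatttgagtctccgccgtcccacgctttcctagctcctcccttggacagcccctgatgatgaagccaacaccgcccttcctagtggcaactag
Psmb8 has 1 match to TTCNNNGAA and Psme1 has 1 match to the paired GAAA, while Psmb9, Psmb10 and Psme2 have neither in this window. The Psmb9 window lies back to back with that of Tap1, the peptide transporter gene on the opposite strand, and 275 bases are common to both. Exons of Psmb9 and Tap1 overlap on opposite strands.

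Psmb5 and Psmb6, the constitutive partners of Psmb8 and Psmb9, are shown for comparison with capitals at TGACNNNGC. This is the core of the antioxidant response element, which NRF-type factors bind.
Psmb5 (chr14:54617946-54618245, minus strand): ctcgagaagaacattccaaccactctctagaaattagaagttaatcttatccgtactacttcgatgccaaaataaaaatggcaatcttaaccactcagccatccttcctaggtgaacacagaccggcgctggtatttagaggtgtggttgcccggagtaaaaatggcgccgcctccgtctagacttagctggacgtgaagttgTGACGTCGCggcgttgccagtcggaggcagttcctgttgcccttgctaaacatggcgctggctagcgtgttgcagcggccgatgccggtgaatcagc
Psmb6 (chr11:70525107-70525406, plus strand): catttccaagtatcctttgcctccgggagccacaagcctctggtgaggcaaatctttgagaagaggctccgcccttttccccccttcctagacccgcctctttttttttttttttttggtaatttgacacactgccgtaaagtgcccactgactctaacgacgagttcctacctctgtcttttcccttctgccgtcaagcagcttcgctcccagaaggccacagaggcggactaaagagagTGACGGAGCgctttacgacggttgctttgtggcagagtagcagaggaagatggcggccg
Each holds 1 match. Among the 42 members with a promoter in the RefSeq table, 6 had TGACNNNGC, which is 14.3% against 14.0% of the 27025 genes in the table. The paired GAAA was in 5 members (11.9% against 3.99% of genes), namely Psmb3, Psmd4, Psmd9, Psme1 and Psmg4, and TTCNNNGAA was in 3 (7.14% against 9.55%). CCAAT, the box bound by NF-Y, was in 15 (35.7% against 41.1%), and 5 of the 7 alpha subunits had it. Both strands were searched, and a match describes letters, not a bound site.

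The 6 cap ATPases, which unfold the substrate, had a median of -0.21, with 2 past 1.5-fold and 5 below 0. Psmc5 had 87.7 CPM (85.1 to 90.4) in the awake and 54.7 (52.8 to 56.7) in the anesthesia library (log2 ratio -0.68, interval -0.75 to -0.61). Psmc4 had 74.7 and 49.3 CPM, a ratio of -0.60 (-0.67 to -0.53). Both were lower in the anesthesia library, while Psmc1 was higher, with 47.2 CPM (45.3 to 49.2) and 54.6 (52.7 to 56.6). Its ratio was 0.21 (0.13 to 0.29), or 0.42 within clusters. The ATPase with the highest level, Psmc3, had 115 and 106.6 CPM, a ratio of -0.11 that was 0.15 within clusters, where the group median was 0.03.

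The 11 other cap subunits had a median of -0.27, with 9 below 0 and 1 past 1.5-fold. Psmd7, a scaffold partner of the deubiquitinating subunit, had 116 CPM (113 to 119) in the awake and 73.6 (71.4 to 75.9) in the anesthesia library (log2 ratio -0.66, interval -0.72 to -0.60). It was lower in the anesthesia library, also within clusters, at -0.55. Psmd14, the deubiquitinating subunit itself, had 43.2 and 43.2 CPM, with a ratio of 0.00041 (-0.08 to 0.09). Psmd12, the member of this group with the highest ratio, had 98.8 and 99.9 CPM, a ratio of 0.02 (-0.04 to 0.07). Psmd8, with the highest level of the group, had 131 and 107.7 CPM, lower by a log2 ratio of -0.28. Psmd4, a ubiquitin receptor of the cap, was nearly level at 105.6 and 100.8 CPM, and Psmd1, a large scaffold, was lower at 80.6 and 57.9 CPM. The Psmd1 count shares 58.5% of its end words with an overlapping gene model and is uncertain. Psmb3 and Psmd2 also share more than 50% of their end words with other genes (73.6% and 57.7%).

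The 5 activators and the inhibitor Psmf1 lay on both sides of 0. Their median was -0.04, 3 of 6 were above 0, 0 passed 1.5-fold, and the intervals of Psme1 and Psme4 alone lay above 0. Psme1, which with Psme2 forms the interferon-inducible ring that opens the core, had 164 CPM (160.8 to 168) in the awake and 209.6 (206 to 213) in the anesthesia library. It was higher in the anesthesia library, with a log2 ratio of 0.35 (0.31 to 0.39) that was 0.60 within clusters and 0.54 after removal of the GC and length trend. Psme2, its partner, had 86.8 (84.1 to 89.5) and 72.7 (70.5 to 74.96) CPM. It was lower, at -0.26 (-0.32 to -0.19), or 0.0066 within clusters, and 68.7% of its end words are shared with its near-copy Psme2b, so the split between them is uncertain. Psme4, which encodes a large activator of mainly nuclear function, had 48.5 CPM (46.5 to 50.5) and 68.3 (66.1 to 70.5), higher in the anesthesia library. Its ratio of 0.49 (0.42 to 0.57) was the highest of all measured members in the sums over all microglia-like cells. Under the 12 alternatives the Psme4 ratio lay between 0.27 and 0.53, and that of Psme1 between 0.34 and 0.60. Psme3, the nuclear activator, had 28.3 and 21.6 CPM and was lower, at -0.39. Psmf1, an inhibitor of the core, had 15.8 and 16.1 CPM with an interval that spans 0.

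All 7 assembly chaperones were below 0, with a median of -0.43 and 1 member past 1.5-fold. Psmg1, which helps to build the alpha ring, had 18.9 CPM (17.6 to 20.1) in the awake and 12.4 (11.54 to 13.4) in the anesthesia library. It was lower by a log2 ratio of -0.60 (-0.74 to -0.46), but at -0.18 within clusters. Psmd9, a chaperone of the ATPase ring and the most abundant of the group, had 32.3 and 29.8 CPM, a ratio of -0.12 (-0.22 to -0.02). Psmd5 and Psmd10, chaperones of the same ring, were lower, at -0.52 and -0.47. Under the 12 alternatives Psmd5 lay between -0.62 and -0.46, but Psmd10 between -0.54 and -0.03. The members that were not measured were Psmb11, the subunit of thymic epithelium, with 3 and 6 UMIs, and Psmc3ip, a meiotic recombination factor that only shares the symbol, with 103 and 52 UMIs.

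Genes that work with the proteasome were mixed in direction. Of 15 measured partners outside the Psm symbols, 2 passed 1.5-fold upward and 1 downward, shares near or below the 13.2% and 12.0% of all measured genes, and the median log2 ratio was -0.07. Ddi2 had 48.1 and 90.5 CPM, a ratio of 0.91 (0.84 to 0.98), and Nfe2l1 had 45.5 and 69.5 CPM, a ratio of 0.61 (0.54 to 0.69), both higher in the anesthesia library. Nfe2l1 encodes the factor that raises proteasome gene transcription when proteasome activity is short, and Ddi2 the protease that activates it. Ngly1, whose enzyme removes sugars from that factor, had 25.6 and 15.1 CPM, lower at -0.76 (-0.89 to -0.63). Adrm1, a ubiquitin receptor of the cap, had 81.2 and 56.0 CPM, a ratio of -0.54 (-0.60 to -0.47).

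Of 20 genes of ubiquitin supply and delivery, 2 were at least 1.5-fold higher and 1 lower, and the median was -0.00035. These shares lie below the 13.2% and 12.0% of all measured genes. Ubb, a polyubiquitin gene, had 1955 and 1227 CPM, lower in the anesthesia library at -0.67 (-0.69 to -0.66). Ubqln2, a shuttle to the proteasome, had 26.8 and 42.4 CPM, higher at 0.66 (0.56 to 0.76).

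Of 13 measured genes of MHC class I loading, which uses proteasome peptides, 0 were at least 1.5-fold higher and 1 lower. Both shares lie below the 13.2% and 12.0% of all measured genes, and the median was 0.00068. Erap1, the trimming peptidase, had 26.5 and 38.5 CPM (0.54), and B2m, the light chain, had 1372 and 1872 CPM (0.45). Calr, a chaperone of loading, had 1431 and 930.1 CPM (-0.62), and H2-D1, a heavy chain, had 930 and 733 CPM (-0.34). Tap1, which shares its promoter region with Psmb9, had 38.0 and 33.96 CPM (-0.16).

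The balance of immune and constitutive subunits differed by cell class. In endothelial-like cells (113 awake and 122 anesthesia cells), the immunoproteasome share of catalytic UMIs was 42.9% (38.9 to 47.0) and 44.7% (40.1 to 49.4), below microglia-like cells in both libraries. In choroid plexus or ependymal-like cells it was 24.7% (19.996 to 29.9) of 312 UMIs in 79 anesthesia cells. The 41 awake cells of that class had 53 immune among 208 catalytic UMIs. In border-associated macrophage-like cells (64 and 53 cells) it was 53.2% (48.2 to 58.1) and 51.2% (46.7 to 55.7), with intervals that overlap those of microglia-like cells. Neutrophil-like cells were 23 and 3, with 89 of 182 and 18 of 38 catalytic UMIs. Microglial marker RNA was present in every class, against 23284 and 21011 CPM in microglia-like cells. It was at 4295 and 9062 CPM in endothelial-like and 8214 and 9171 CPM in choroid or ependymal-like cells. Border-associated macrophage-like cells had the most of these 3 classes, 15768 and 18310 CPM, beside 3702 and 1281 CPM of their own markers. The part of this microglial RNA in these shares was not tested.

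**Figure D3:**
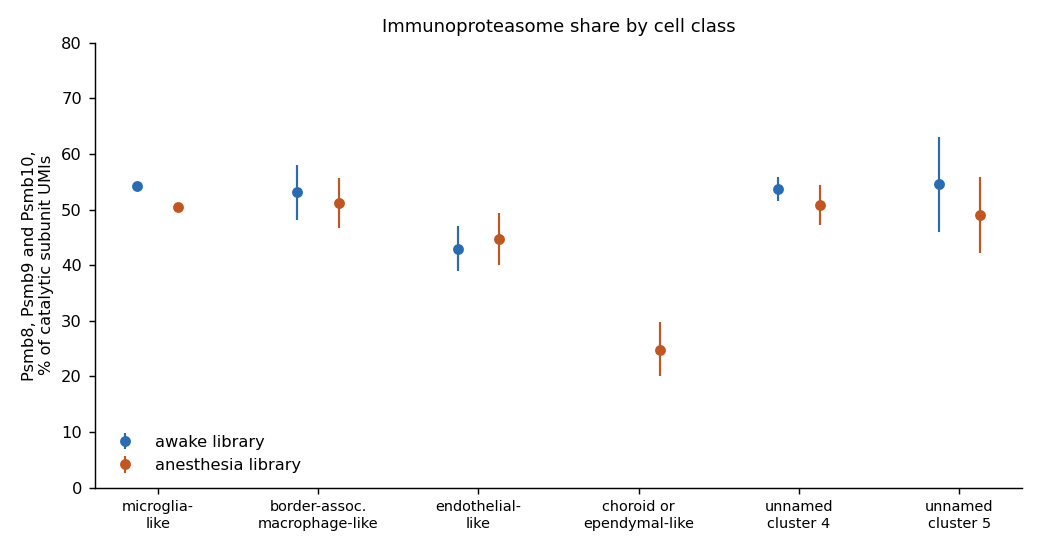
Psmb8, Psmb9 and Psmb10 as a percent of the UMIs of all 6 catalytic subunit genes in each cell class, with exact Clopper-Pearson 95% intervals. Blue is the awake and orange the anesthesia library, and only classes with at least 50 cells in a library are drawn. Choroid or ependymal-like cells lie lowest, at 24.7%, and microglia-like cells at 54.2% and 50.5%.

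Against microglia-like cells of the same library, endothelial-like cells had higher proteasome RNA for several members. The interval lay above 0 in both libraries for 12 of 48 members, where 13.1% of all measured genes did so. It lay below 0 in both libraries for 1 member, Psmb8, against 15.1% of genes. Psma7 had 346 CPM in awake endothelial-like and 146 CPM in awake microglia-like cells, and 215 and 125 CPM in the anesthesia library, log2 ratios of 1.25 and 0.78. Psmb8 had 131 against 196 CPM and 91.3 against 137 CPM, lower at -0.58 and -0.59. Psmb10 went the other way, with 157 against 106 CPM and 106.9 against 67.7 CPM, higher at 0.57 and 0.66. In border-associated macrophage-like cells the interval was above 0 in both libraries for 1 member, Psmd7 (3.15% of all measured genes), and below 0 for 0 (1.48%). These cells carried much microglial marker RNA, as given above, and its part in these ratios was not tested.

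Between the libraries, proteasome RNA was also lower in the anesthesia library in endothelial-like and border-associated macrophage-like cells. It was nearly level in choroid plexus or ependymal-like cells, of which only 41 were awake and 79 anesthesia cells. Their sums were 4598 CPM (4367 to 4839) and 4482 CPM (4308 to 4660), with overlapping intervals. In endothelial-like cells all members together had 5614 CPM (5440 to 5792) awake and 4077 (3941 to 4217) under anesthesia, and 22 of 48 members had an interval below 0 and 1 (Psme4) above 0. Of all measured genes, 12.5% were below and 11.3% above 0 there. In border-associated macrophage-like cells the sums were 4557 CPM (4375 to 4745) and 3719 CPM (3596 to 3845), with 11 members below 0 and 1 (Psme4) above 0, against 8.13% and 10.0% of genes. The members lie above the median gene in level, and an interval clears 0 more readily at a high count. The marker levels of these classes moved as well. Endothelial markers in endothelial-like cells summed to 36833 CPM awake and 20405 under anesthesia, and erythroid or platelet markers to 14522 and 5765 CPM. Macrophage markers in border-associated macrophage-like cells summed to 3702 and 1281 CPM. The part of these markers in the ratios was not tested.

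The 8 members lower in microglia-like cells are given here for both classes. How many of all genes lower in microglia-like cells were also lower there was not counted, so no overlap is read from these values. In endothelial-like cells the log2 ratio of anesthesia over awake was -1.21 for Psma5, -1.13 for Psmb5, -0.91 for Psma1 and -0.71 for Psmc5. It was -0.61 for Psmd7, -0.55 for Psmb10 and -0.54 for Psmc4, and all of these intervals lay below 0. Psmg1 had 10 and 11 UMIs there and its interval spans 0. In border-associated macrophage-like cells, Psmc4 (-1.18), Psma1 (-1.03), Psmb5 (-0.9999), Psmg1 (-1.19) and Psmd7 (-0.58) had intervals below 0, and those of Psma5, Psmb10 and Psmc5 span 0. Psme4 was higher in both classes, at 0.81 (0.09 to 1.56) and 0.91 (0.18 to 1.71). These classes come from the same 2 libraries and hold microglial RNA, so they are not further replicates.

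Within microglia, some subunits differed between groups of cells, although their spread over all cells was small. Counting error alone gives UMIs per cell a variance equal to their mean. Over thinned microglia-like cells, the median ratio of variance to mean was 0.999 for the 48 awake members. It was 1.015 for the 9001 measured genes whose mean lay between the lowest and highest member. Under anesthesia it was 1.020 for 47 members and 1.032 for 6659 genes chosen in that way. These genes span the range of the members and were not matched to them in mean. Single members ranged from 0.959 to 1.050 when awake and from 0.971 to 1.095 under anesthesia. Cells thinned to 2000 UMIs were grouped by the summed UMIs of 30 interferon-stimulated genes, a list that holds no proteasome gene. In cells with 6 or more such UMIs (130 awake and 170 anesthesia cells) against cells with 0 (2621 and 2657), the interval of the log2 ratio lay above 0 in both libraries for 3 of 48 members, Psme1, Psme2 and Psmb10. Of all measured genes, 1.06% did so. It lay below 0 in both libraries for 0 members, against 0.176% of genes. Psme1 had 159 CPM in cells with 0 and 312 in cells with 6 or more in the awake library, and 202 and 329 in the anesthesia library. Psme2 had 84.1 and 161.5 CPM in the awake, and 67.2 and 108.8 CPM in the anesthesia library. Psmb10 had 107.8 and 161.5 CPM, and 69.3 and 102.9 CPM, so all 3 were higher in the interferon-rich cells of each library.

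Psmb8 was higher in those cells in the awake library, with 193 and 304 CPM, a log2 ratio of 0.66 (0.31 to 0.99). In the anesthesia library it had 134 and 165 CPM, and the interval spans 0 (0.29, -0.13 to 0.69). The intervals of the 2 libraries overlap, so no difference between them was detectable at this depth. Psmb9 had 0.72 (0.08 to 1.30) and 0.22 (-0.56 to 0.91). The immunoproteasome share of the groups with 0 and with 6 or more was 55.0% (53.3 to 56.7) and 62.8% (56.3 to 69.0) in the awake library, and 49.9% (48.0 to 51.8) and 52.2% (45.2 to 59.1) in the anesthesia library. The constitutive subunits varied as well. Psmb5 had 84.7 CPM in awake cells with 0 and 127 in those with 6 or more (log2 ratio 0.58, 0.03 to 1.09), but 60.2 and 47.1 in the anesthesia library (-0.36, -1.18 to 0.37). Psmb7 had 74.6 and 69.2 CPM in the awake library (-0.11, -0.88 to 0.57) but 79.8 and 126 in the anesthesia library (0.66, 0.18 to 1.12). Psmb5 was thus higher in the awake and Psmb7 in the anesthesia library, by ratios near the 0.66 of Psmb8 in the awake library. All members except the 3 immunoproteasome subunits, Psme1 and Psme2 (so with Psmb5, Psmb6 and Psmb7) were also summed. They had 3473 and 3704 CPM in the awake library and 2960 and 3094 CPM in the anesthesia library.

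**Figure D4:**
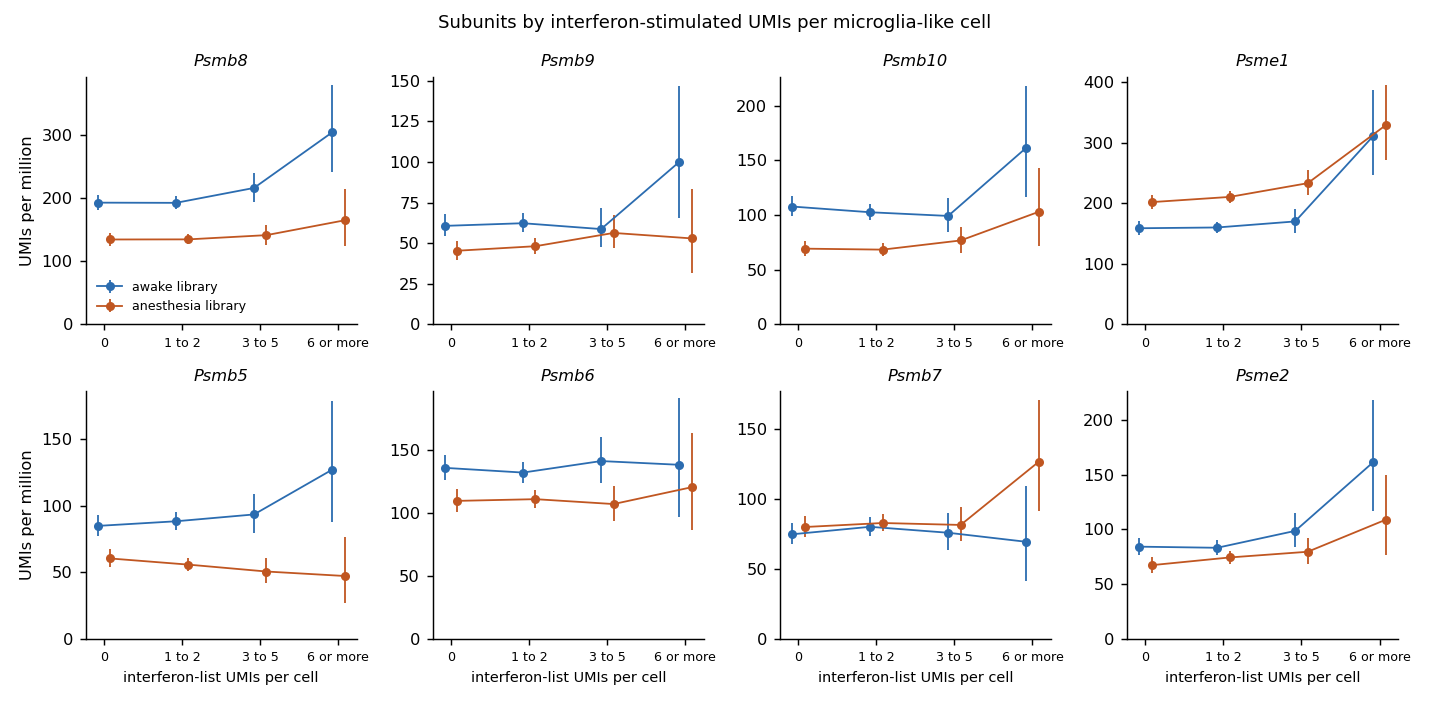
Level, in CPM with exact Poisson 95% intervals, of 8 subunits in microglia-like cells grouped by the UMIs of 30 interferon-stimulated genes per cell after thinning. Blue is the awake and orange the anesthesia library. Psme1 reaches 312 and 329 CPM in cells with 6 or more such UMIs, and Psmb6 lies between 132 and 141 CPM in the awake and between 107 and 121 CPM in the anesthesia library over the 4 groups.

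Cluster 6, led by Clec7a, Lpl and Apoe, held 293 awake and 73 anesthesia microglia-like cells and had the highest proteasome sum of the microglia-like clusters. The members together had 4602 CPM (4517 to 4688) in the awake and 4497 (4316 to 4683) in the anesthesia library. In cluster 1 the awake cells had a sum of 4200 CPM (4172 to 4228) and the few anesthesia cells 4141 (3958 to 4329), and in cluster 3 it was 3947 and 3572 CPM. In cluster 0 it was 3589 CPM in the few awake and 3344 CPM in the anesthesia cells, and in cluster 2 it was 4005 and 3638 CPM. The sum thus differed by cluster, and by library in clusters 0, 2 and 3, while in clusters 1 and 6 the intervals of the 2 libraries overlap. Proteasome genes were kept out of the genes that built the clusters. Against the other microglia-like cells of the same library, the interval lay above 0 in both libraries for 11 of 48 members, where 5.88% of all measured genes did so, and below 0 for 0, against 6.45%.

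Among these 11 members Psmb6 differed most, with 205 against 137 CPM in the awake and 227 against 108 CPM in the anesthesia library. Its log2 ratios were 0.59 (0.45 to 0.72) and 1.06 (0.79 to 1.33). The other 10 were Psmd14, Psmc5, Psmc4, Psmd7, Psmc1, Psma4, Psmd8, Psmd11, Psma2 and Psmb2, all of the core or the cap. None of the 3 immunoproteasome subunits was among them. Psmd10, also not among them, had the highest ratio of any measured member in the anesthesia library, at 1.15 (0.45 to 1.77) from 21 UMIs. In the awake library it was at 0.07 (-0.31 to 0.43). Psmb9 had 45.97 against 64.0 CPM in the awake library, lower at -0.48 (-0.76 to -0.20), and 34.9 against 47.3 CPM in the anesthesia library, where the interval spans 0 (-0.44, -1.20 to 0.22). Psmb8 was at -0.25 (-0.40 to -0.10) and 0.18 (-0.16 to 0.49).

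**Figure D5:**
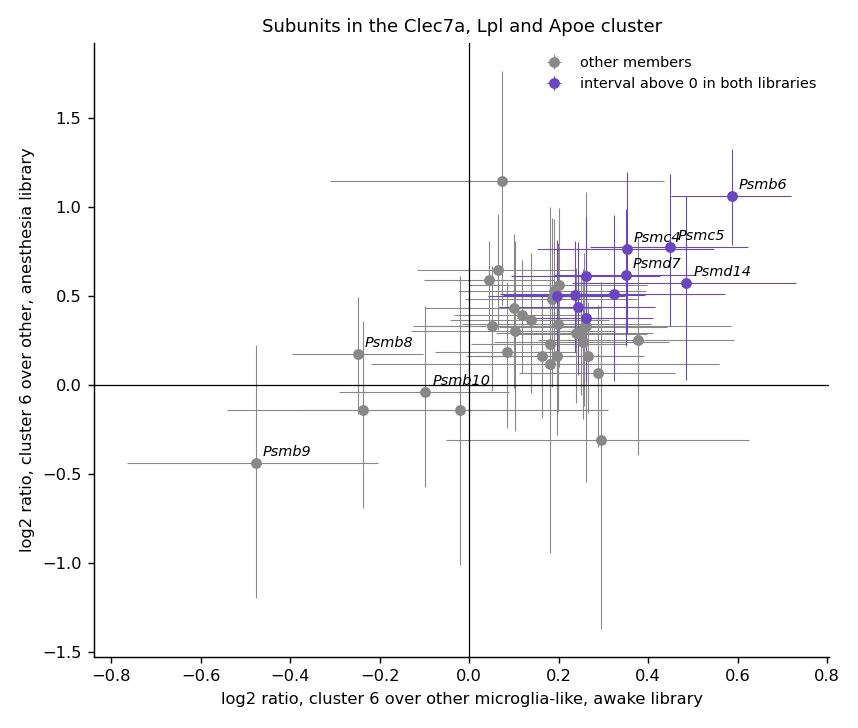
Log2 ratio of cluster 6 over the other microglia-like cells, in the awake library (x axis) and in the anesthesia library (y axis), with exact 95% counting intervals. Shown are the 42 members with at least 20 awake and 10 anesthesia UMIs in cluster 6, with members above 0 in both libraries in purple. Psmb6 lies at the upper right and Psmb9 at the lower left. Psmd10 lies highest on the y axis, at 1.15, but near 0 on the x axis.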

How the data were processed

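Single-cell RNA of 2 libraries of sorted mouse microglia was analysed. The deposited values are whole-number UMI counts per gene and barcode, not normalized, in 10x matrices. Per the submitters' processing notes, the authors used bcl2fastq and Cell Ranger 3.1.0 with GRCm38. The matrix headers name Cell Ranger 4.0.0 instead, and this difference was not settled. The handling of introns and cell calling is not given in the sources used here. All 55450 identifiers matched GENCODE M21, which gave coordinates, length and GC content.

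The members and gene lists were chosen with earlier results of these data known. Cells were kept with at least 500 genes, 1000 UMIs and at most 10% mitochondrial UMIs. Both libraries were clustered jointly in scanpy 1.11.5, with leidenalg 0.10.2 (2000 variable genes without proteasome, interferon-list, mitochondrial, ribosomal protein and hemoglobin genes, 30 components, 15 neighbours, resolution 0.6). Names ending in "-like" rest on 15 classes with 10 markers each. A class needed at least 3 enriched markers (4-fold, in 25% of cells) with 1 or more among the leading genes of at least 200 CPM, and microglia-like clusters needed 7 of their 10 markers. These thresholds were set after seeing the data. So was the split of neutrophil-like cells from the macrophage cluster at 1% neutrophil-marker UMIs, where the lowest cell above held 2.74% and the highest below 0.184%. Clusters 4 and 5 stayed unnamed (482 and 201 awake, 208 and 315 anesthesia cells). A Scrublet-type caller marked 0 awake and 1 anesthesia cell, so it did not work here and no doublet was removed.

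Counts were summed per library and class and scaled to UMIs per 1000000 over all genes (CPM). Intervals are exact Poisson (levels), Clopper-Pearson (shares) and conditional binomial (ratios). With 1 library per group there is no test and no p-value. Values are given in full for the catalytic subunits, members past 1.5-fold, and the highest and lowest of each role group, and some members (Psmd1, Psmd4, Psme2, Psme3, Psmf1, Psmd5, Psmd10, Tap1) were added after their values were seen. Thinning to 2000 UMIs removed shallower cells, 44 of the awake and 81 of the anesthesia library's microglia-like cells. The ratio within clusters is a Mantel-Haenszel ratio. edgeR 4.0.16 gave TMM factors for an alternative. The ratio and interval functions were tested on simulated counts. Promoters are RefSeq sequences of GRCm38.p6, matched by symbol for 42 of 50 members. Protein sequences were not used here. Some genes of the ubiquitin list are not reported here by name.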

Additional observations from a re-analysis of the deposited data

How the results depend on the processing

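No paired analysis was possible because each group has 1 library. The microglia-like member ratios, their counts and their medians were recomputed under 12 alternatives, except that Psma8 had too few UMIs for 2 of them, and the immunoproteasome share under 5. Comparisons between classes, with cluster 6 and between interferon groups were not recomputed. The settings not named below were median-of-ratios and TMM scaling, a minimum of 1000 UMIs, all barcodes, 8% of cells with the highest doublet scores left out, and at most 5% mitochondrial UMIs. The 8 lower members became 0 by the ratio within clusters, where 12.5% of all measured genes were lower. They became 5 without cells over 10000 UMIs (12.2% of genes) and 5 with each cell given the same weight (12.4%). After thinning each cell to 2000 UMIs, 4 were lower (11.4% of genes). After a GC and length trend was taken out, 2 were lower (11.1% of genes), of which 1 (Psma1) was among the 8. That trend accounted for 9.51% of the variance of the log2 ratio over measured genes. The count of higher members was 1 within clusters (Psme1) and 1 with no filter on low counts (Psmb11, with 3 and 6 UMIs). Of all genes counted under those settings, 11.4% and 26.2% were higher. The median log2 ratio of the members was -0.14 within clusters and between -0.28 and -0.23 under the other 11 alternatives. The within-cluster ratio changed the sign of 11 members and rests on 75, 68, 117 and 141 cells of the minority library in the 4 main clusters. The awake immunoproteasome share was 54.8% after thinning. Under the other alternatives it lay between 53.8% and 54.6%, and the anesthesia share between 50.2% and 50.6%. Causes of these shifts were not tested. For members under 20 CPM and for classes other than microglia, the number of UMIs sets the width of the intervals.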

Other observations

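The order of the members by level was similar in both libraries, with a few shifts. Psme4 stood 35th of the 48 measured members when awake and 24th under anesthesia, and Psme1 3rd and 1st. Psmd7 went from 12th to 22nd, and Psma1, Psmb5 and Psmb10 from 9th, 23rd and 16th to 18th, 32nd and 25th.

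The median log2 ratio of the members was -0.09 in microglia-like cells with 1000 to under 3000 UMIs, -0.27 with 3000 to under 6000, -0.27 with 6000 to under 10000 and -0.23 with 10000 or more. The first group holds only 170 awake and 292 anesthesia cells. Psmd7 lay between -0.75 and -0.66 and Psme1 between 0.29 and 0.70 over these groups. Psmb5 was at -0.10 (-0.86 to 0.68) in the shallowest cells and between -0.83 and -0.60 in the others. Over the 4 groups, 26 members kept 1 sign and 22 did not. Among the latter were Psmc5 (range -0.75 to 0.22), Psmc4 (-0.64 to 0.18), Psmb9 (-0.49 to 0.42), Psmc1 (-0.39 to 0.28) and Psme4 (-0.51 to 0.49). For each of these named members only the shallowest cells gave the differing sign, with a counting interval that spans 0. For Psmc5 that interval was -0.61 to 1.10, from 19 awake and 38 anesthesia UMIs.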
